A study of Mus musculus with 53 samples.

Results

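Fibroblast segments of the median eminence (ME) were set against pericyte segments of the cortex. The segments are the 20 titled as ME and GFP and the 15 titled as cortex and desmin, 35 of the 53 in the series, and each of the 4 adult *Pdgfra*-H2B-EGFP/+ mice gave both kinds. All groups carry this genotype, in which cells that express *Pdgfra* have EGFP in the nucleus. RNA was probed with the GeoMx mouse whole transcriptome panel in areas drawn on brain sections, GFP+ and desmin (DES)- for fibroblast segments and DES+ GFP- for pericyte segments, so *Des* and GFP transcripts cannot count as results. In the brain *Pdgfra* also marks oligodendrocyte precursor cells and desmin also marks vascular smooth muscle cells, and a segment may hold RNA of neighbouring cells.

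The ME is a circumventricular organ at the base of the hypothalamus, where neurohormones pass into fenestrated capillaries that lack a blood-brain barrier. Its fibroblasts lie in the wide perivascular space around these capillaries and are known as producers of extracellular matrix. Pericytes of the cortex are embedded in the basement membrane of capillaries that have a blood-brain barrier, and they take part in keeping that barrier. The 35 segments therefore differ in both cell type and region, and these cannot be told apart from this comparison alone. For this reason the values of 17 ME pericyte segments (animals 2, 3 and 4) and of the single cortex segment chosen by GFP (animal 2) are set beside them where a result turns on it.

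The values are raw counts for 20175 probes that the files name by identifier only. No source used here pairs the probes with genes. The labels could therefore not be checked against marker genes, and no gene, pathway or sequence is given.

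For each animal, the counts of each segment type were added up, which gave 8 sums. The ME fibroblast sums of animals 1, 2, 3 and 4 held 61752, 57072, 878544 and 99152 counts, from 1, 1, 15 and 3 segments. The cortex pericyte sums held 41076, 53932, 2382682 and 1350676 counts, from 1, 2, 6 and 6 segments. Animals 1 and 2 were on one collection plate, where the depth of both types was similar, and animals 3 and 4 were on another, where the cortex sums were deeper. Counts per nucleus were 950, 1189, 1215 and 640 in ME fibroblast and 1643, 469, 3666 and 2962 in cortex pericyte sums, lower in ME fibroblasts in 3 of 4 animals. The mean log2 ratio, ME fibroblast over cortex pericyte, was -0.81 ± 1.55 (SD, n = 4; exact sign-flip permutation test, two-sided, p = 0.375, adjusted p = 0.667 over 4 measures). The smallest p that 4 pairs allow is 2 of 16 sign assignments, which cannot pass 0.05. The log2 ratio of the median counts per segment was -0.88 ± 1.99 (SD, n = 4; the same exact test, p = 0.5) and that of the median number of nuclei was -0.11 ± 1.07 (SD, n = 4; exact p = 0.75). The 200 highest probes took 15.4% to 15.9% of the counts in the ME fibroblast sums and 12.7% to 15.0% in the cortex pericyte sums, with a higher share in ME fibroblasts in 4 of 4 animals (exact permutation test at the smallest p that 4 pairs allow, adjusted p = 0.5). Only the totals of the sums were made equal, by thinning, in an alternative given below. The part of the other differences in the results below was not tested.

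Of the 928 probes that passed the filter on low counts, 380 (40.9%) were called different between ME fibroblasts and cortex pericytes. ME fibroblasts had the higher level for 161 probes (17.3%) and the lower level for 219 (23.6%). A call needed a Benjamini-Hochberg adjusted p under 0.05 together with a change of more than 1 on the log2 scale (quasi-likelihood test of edgeR over the 928 probes with the animal as a block, n = 4 animals). The higher probes had a median log2 fold change of 1.41 and the lower probes one of -1.83, against 0.01 over all 928. The lower probes also held more of the larger changes in number, with 90 over 2 in size on the log2 scale against 47 of the higher probes. Changes over 3 in size were equally many, 22 in each direction. A higher or lower level in a segment can come from more cells of a type or from more RNA per cell, and these cannot be told apart.

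**Figure D1:**
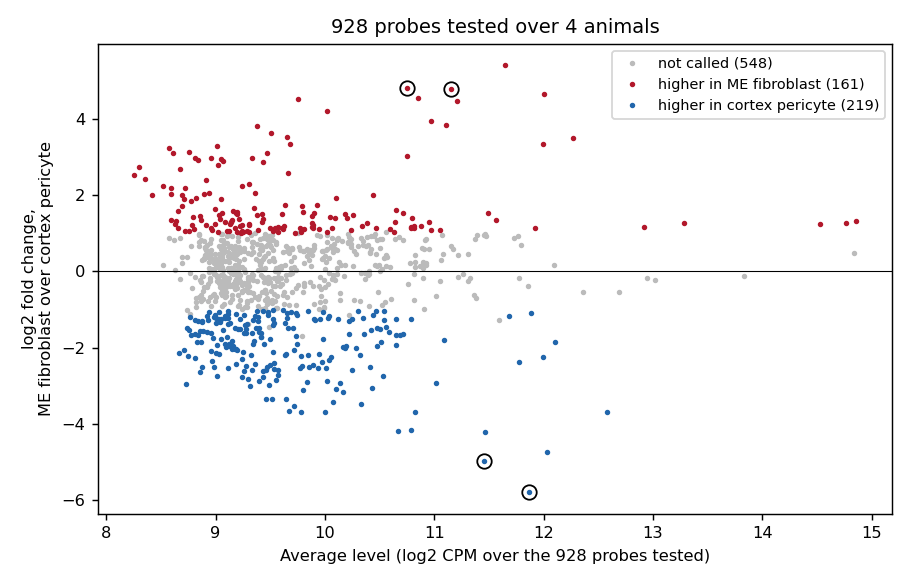
Log2 fold change of each of the 928 probes, ME fibroblast over cortex pericyte, against its average level in log2 CPM over these probes. Each point is 1 probe, red and blue points are the 161 higher and 219 lower probes, grey points are the 548 not called, and circles mark the 4 probes named in the text. Called probes of both directions lie at all levels.

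The share of probes called changed little with level. In 4 bins of average level, 232 probes each, it was 42.2%, 39.2%, 39.7% and 42.7% from the lowest to the highest. The balance of directions varied, with 50 higher and 48 lower probes in the lowest bin, 34 and 57 in the next, 32 and 60 in the one after it and 45 and 54 in the highest. The filter itself chose probes through the group in which they are abundant. Of the 161 higher probes, 74 were under 124 CPM in all 4 cortex sums, the level the filter asks for, and 125 of the 219 lower probes were under it in all 4 ME fibroblast sums. The counts of called probes are therefore a description of well-counted probes and not of the transcriptome.

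All 4 animals shared the direction of change for 151 of the 161 higher probes and for 202 of the 219 lower ones. Among all 928 probes they shared it for 565. Among the higher probes the median log2 change was 1.66, 1.19, 1.38 and 1.59 in animals 1, 2, 3 and 4. Among the lower probes it was -1.81, -1.64, -1.88 and -1.76. The 4 medians of each direction thus lay close together, although animal 3 gave 15 of the 20 ME fibroblast segments. The 4 ME fibroblast sums lay fully above the 4 cortex sums for 137 of the higher probes and fully below for 197 of the lower probes, where 46.8% of all 928 probes had sums that did not overlap. Over single segments, the 20 ME fibroblast and 15 cortex pericyte segments did not overlap for 42 higher and 75 lower probes, against 12.8% of all 928. These probes were called on the same counts, so the numbers describe how far the groups lay apart and add no support.

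The 20 called probes of largest fold change in each direction had the same direction in 4 of 4 animals, and their 4 sums did not overlap between the groups. The 20 higher probes had log2 fold changes from 3.11 to 5.40. Their mean level over the 4 animals had a median of 661 CPM (183 to 2312) in ME fibroblast and 43.1 CPM (18.1 to 244) in cortex pericyte sums. In the ME pericyte sums of 3 animals it had a median of 339 CPM (128 to 1761), between these levels. The 20 lower probes had log2 fold changes from -5.80 to -3.10. Their mean level had a median of 42.4 CPM (19.9 to 204) in ME fibroblast and 455 CPM (290.2 to 3113) in cortex pericyte sums. In ME pericyte sums it had a median of 42.7 CPM (15.5 to 331). The ME pericyte level lay between the groups for 10 of these 20 probes, against 409 of all 928. Both ME levels rest on few counts in the smaller sums and no limit of quantification was computed. They therefore do not show how alike the ME types are.

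Probe RTS0068234 had the smallest p among the higher probes. Its level over the ME fibroblast segments was 819 CPM of all counts at the lowest, 1252 at the median and 1627 at the highest. Over the cortex pericyte segments it was 0, 43.0 and 77.3 CPM, and the groups did not overlap. A count of 0 stood in 2 cortex segments, where it allows a level of up to 32.9 and 107 CPM (3 counts of the segment's total). In the sums it was counted 77, 55, 1158 and 85 times in ME fibroblasts of animals 1, 2, 3 and 4 and 3, 2, 109 and 48 times in cortex pericytes. This is a level of 1096 ± 221 CPM (SD, n = 4) against 47.9 ± 17.4 CPM (SD, n = 4). The ratio of the sums was 17.1 in animal 1 (95% counting interval 5.63 to 84.6) and 26.0 in animal 2 (6.86 to 220.0), where the cortex counts were few. It was 28.8 in animal 3 (23.7 to 35.4) and 24.1 in animal 4 (16.7 to 35.1), and the 4 intervals overlapped. The fitted log2 fold change was 4.77 (standard error 0.25, edgeR adjusted p = 4.91e-10). The ME pericyte segments lay in between, from 444 to 1204 CPM with a median of 764, and they overlapped with the ME fibroblast segments.

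Probe RTS0063872, the other higher probe named, was at 410.0, 998 and 1397 CPM at the lowest, median and highest ME fibroblast segment. In the cortex pericyte segments it was at 17.7, 35.9 and 53.6 CPM. The groups did not overlap, and the ME fibroblast sums were at 816 ± 213 CPM (SD, n = 4), the cortex pericyte sums at 38.1 ± 7.36 CPM (SD, n = 4). It was counted 31, 51, 860 and 88 times in the former and 2, 2, 76 and 47 times in the latter. The ratio was lowest in animal 1, at 10.3 (95% counting interval 2.62 to 88.9), and was 24.1 (6.34 to 204), 30.7 (24.3 to 39.3) and 25.5 (17.7 to 37.2) in animals 2, 3 and 4. The fitted log2 fold change was 4.82 (standard error 0.27, edgeR adjusted p = 5.89e-10). Unlike RTS0068234, it was called between the cell types of the ME.

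Beside these changes stand the values from the ME pericyte segments, which share the ME fibroblast sums with one comparison and the cortex sums with the other. Among all probes tested there, 4.61% of 3277 were called in ME fibroblast against ME pericyte segments (edgeR, n = 3 animals, 2 residual degrees of freedom). In ME pericyte against cortex pericyte segments, 7.18% of 19144 were called (the same test). The filter was applied anew to each, so these shares are of unlike sets of probes and not comparable with 40.9% of 928. Calls among those 928, which were filtered on ME fibroblast and cortex sums, are not comparable between the 2 comparisons either. The cortex sums of animals 3 and 4 were deeper than any ME sum. Of those 928, 822 were tested between the ME types, with 17 called higher and 29 lower in ME fibroblasts. In ME pericyte against cortex pericyte segments all 928 were tested, with 92 called higher and 237 lower in ME pericytes. On the log2 scale RTS0068234 changed by 0.64 (standard error 0.17, adjusted p = 0.00845) in the former and by 3.93 (standard error 0.29, adjusted p = 7.63e-38) in the latter, both from edgeR, and the former was under the fold change limit. That adjusted p from edgeR was 0.734 without animal 3 and 0.269 without animal 4, with log2 changes of 0.59 and 0.52. RTS0063872 had 1.48 (standard error 0.18, adjusted p = 5.68e-07) in the former and 3.27 (standard error 0.28, adjusted p = 2.12e-29) in the latter, both from edgeR. Without animal 3 the former was 1.51 with an edgeR adjusted p of 0.0693, so the call rests on that animal. In single ME pericyte segments RTS0063872 ranged from 146 to 583 CPM with a median of 353, and these overlapped with the ME fibroblast segments, the lowest of which was at 410.0 CPM.

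**Figure D2:**
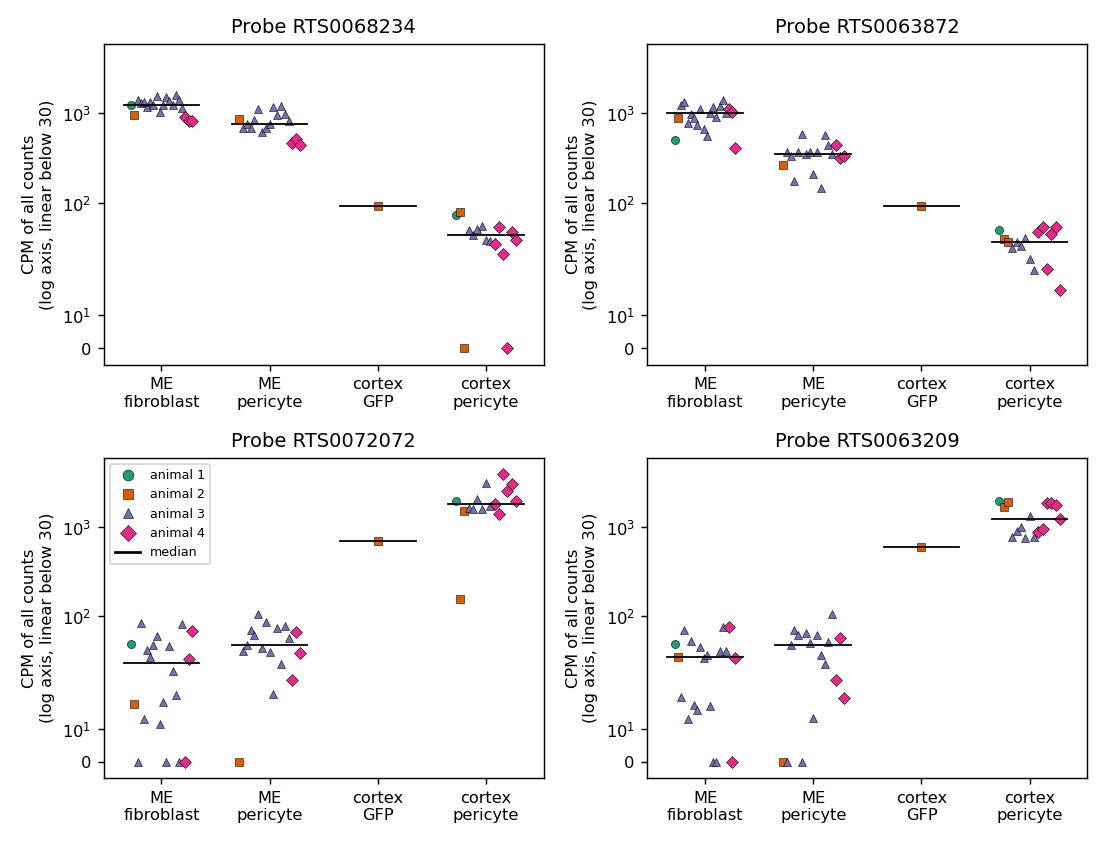
Level of the 4 named probes in each segment, in CPM of all counts on an axis that is logarithmic above 30 and linear below, for the 4 segment types. Each point is 1 segment, shapes and colors mark the animals and lines mark medians. The upper probes are high in both ME types and the lower probes are high in the cortex types, the single GFP segment included.

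Probe RTS0072072 had the largest change among the lower probes. The ME fibroblast segments were at 0, 30.1 and 83.1 CPM at the lowest, median and highest, and the cortex pericyte segments at 155, 1831 and 3937 CPM, with no overlap. A count of 0 stood in 4 ME fibroblast segments, where it allows up to 50.8 to 76.2 CPM. The sums held 3, 1, 28 and 3 counts in ME fibroblasts and 81, 46, 4678 and 3159 counts in cortex pericytes. The level was 32.1 ± 12.7 CPM (SD, n = 4) against 1782 ± 643 CPM (SD, n = 4). The ratio, cortex pericyte over ME fibroblast, was 40.6 (95% counting interval 13.4 to 201) in animal 1, 48.7 (8.31 to 1964) in animal 2, 61.6 (42.6 to 92.8) in animal 3 and 77.3 (26.4 to 375) in animal 4. The 4 intervals overlapped and cover counting error only. The probe was chosen for 1 direction in all 4 animals, so ratios above 1 add no support. The fitted log2 fold change was -5.80 (standard error 0.31, edgeR adjusted p = 4.91e-10). One cortex segment of animal 2 held only 4 counts, the 155 CPM above, and the other one of that animal was in the range of the rest.

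Probe RTS0063209, the other lower probe named, was at 0, 34.7 and 76.2 CPM in ME fibroblast segments and at 764, 1217 and 1948 CPM in cortex pericyte segments. The groups did not overlap. A count of 0 in 3 ME fibroblast segments allows up to 68.7 to 98.2 CPM. The sums held 3, 2, 29 and 4 counts in ME fibroblasts and 80, 96, 2185 and 1777 counts in cortex pericytes, or 39.2 ± 6.95 CPM (SD, n = 4) against 1490 ± 466 CPM (SD, n = 4). The ratio was 40.1 (95% counting interval 13.2 to 198) and 50.8 (13.7 to 425) in animals 1 and 2, and 27.8 (19.3 to 41.6) and 32.6 (12.7 to 120) in animals 3 and 4. The fitted log2 fold change was -4.96 (standard error 0.28, edgeR adjusted p = 5.89e-10).

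Both lower probes were also scarce in ME pericyte segments. RTS0072072 ranged from 0 to 106 CPM there, with a median of 47.2, and RTS0063209 from 0 to 105 CPM, with a median of 47.2. The ME pericyte sum of animal 2 held 0 counts of either, which allows up to 113 CPM. Their log2 fold changes in ME pericyte against cortex pericyte segments were -5.34 (standard error 0.36, edgeR adjusted p = 3.45e-46) and -4.70 (standard error 0.33, edgeR adjusted p = 4.77e-42). With 2 residual degrees of freedom, these p-values rest on variance shared between probes. They are not comparable with those of ME fibroblast against cortex pericyte segments. Neither probe passed the filter on low counts in ME fibroblast against ME pericyte segments, so no difference within the ME was tested for them.

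The cortex segment chosen by GFP was not itself used to choose these probes and shows them in a GFP+ area of the other region. It was drawn in the same region of interest as 1 of the 2 cortex pericyte segments of animal 2. Those were used for the choice, so it is not independent of them. The segment chosen by GFP held 21654 counts from 71 nuclei of animal 2 and has no replicate. Its 305 counts per nucleus were the fewest of all segments. RTS0072072 was counted 15 times (693 CPM, 95% exact binomial interval 388 to 1142) and RTS0063209 13 times (600.4 CPM, 320 to 1026). The ME fibroblast sum of the same animal was at 17.5 CPM (0.444 to 97.6) and 35.0 CPM (4.24 to 127), below both intervals. The higher probes were each counted 2 times in it (92.4 CPM, 11.2 to 334), against 964 CPM (726 to 1254) for RTS0068234 and 894 CPM (665 to 1175) for RTS0063872 in the ME fibroblast sum of that animal. On the log2 scale, this segment was nearer to the cortex pericyte than to the ME fibroblast sum of that animal in all 4 probes. Intervals cover counting error only.

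Taken as a share of all counts, the 161 higher probes made up 8.42% of an ME fibroblast segment at the lowest, 9.72% at the median and 10.3% at the highest. In cortex pericyte segments they made up 2.84%, 3.29% and 4.19%. These groups are apart because the probes were chosen on them. The other segment types were not used for the choice, but were drawn in the same regions of interest as segments that were. Their share was 5.94%, 6.53% and 7.82% in ME pericyte segments and 5.29% in the cortex GFP segment (1146 counts, 95% exact binomial interval 5.00% to 5.60%). The 17 ME pericyte segments thus lay between the 2 groups with no overlap with either. The cortex GFP segment was below all of them and above all cortex pericyte segments.

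The 219 lower probes took 1.61%, 1.78% and 2.45% of the counts at the lowest, median and highest ME fibroblast segment and 6.40%, 7.87% and 9.31% at those of the cortex pericyte segments. ME pericyte segments were at 1.94%, 2.23% and 2.89% and overlapped with ME fibroblast segments. The cortex GFP segment was at 4.88% (1056 counts, 4.59% to 5.17%), above every ME segment and below every cortex pericyte segment. By probe, the lower probes had a median level of 73.5 CPM in ME fibroblast, 72.3 CPM in ME pericyte and 265 CPM in cortex pericyte sums (means over 4, 3 and 4 animals). The ME pericyte level was below both groups for 116 of the 219 and between them for 100, against 323 and 409 of all 928. These means are over unlike sets of animals, so they give no order of the ME types. Between the ME types, 117 of the 219 were tested, with 14 called lower and 0 higher in ME fibroblasts (edgeR). Of the 822 probes tested there, 29 were called lower and 17 higher. Among the higher probes the median log2 fold change was 0.49 in ME fibroblast against ME pericyte segments and 0.96 in ME pericyte against cortex pericyte segments, where all 928 probes had -0.12 in the latter and the 822 of them tested had 0.03 in the former. Among the lower probes it was -1.96 in the latter over all 219. In the former it was -0.26, but only over the 117 that were abundant enough in ME sums to be tested, so it does not describe the 219. Both comparisons share segments with the one that chose the probes.

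**Figure D3:**
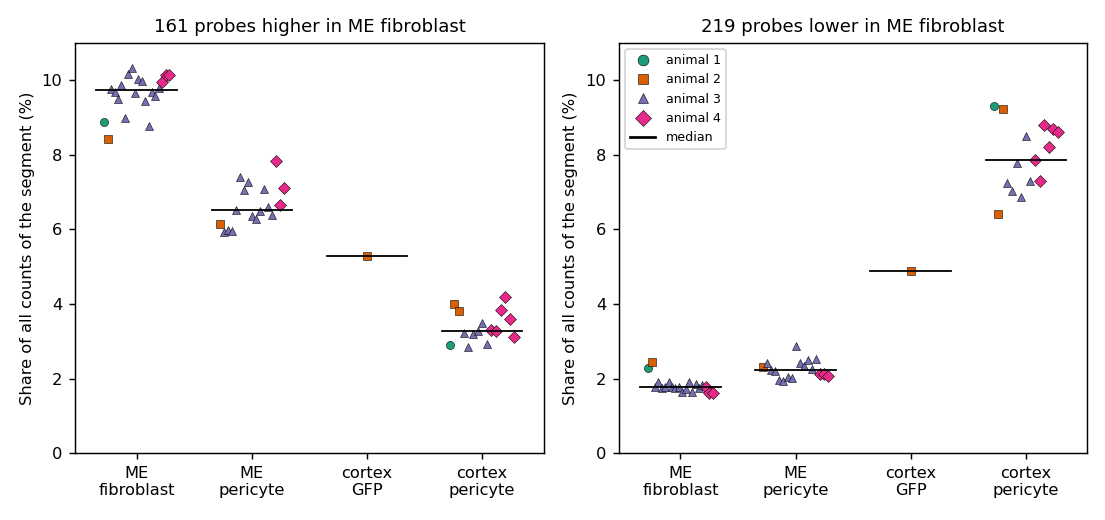
Share of all counts of a segment, in percent, held by the 161 probes higher (left) and the 219 probes lower (right) in ME fibroblasts, for the 4 segment types. Each point is 1 segment, shapes and colors mark the animals and lines mark medians. ME pericyte segments, at a median of 6.53% and 2.23%, lie between the groups on the left and beside the ME fibroblasts on the right.

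Within animal 3, sections on 3 slides each held both types, with 5 ME fibroblast segments each and 3, 1 and 2 cortex pericyte segments. The log2 change of RTS0068234 was 4.72, 4.40 and 5.18 on these slides, and that of RTS0063872 was 4.89, 4.18 and 5.45. RTS0072072 changed by -5.36, -5.68 and -5.82, and RTS0063209 by -4.39, -4.50 and -4.62. The median change was 1.48, 1.41 and 1.46 among the higher probes and -1.76, -1.90 and -1.74 among the lower probes. Across the 928 probes, the changes of 2 slides correlated at 0.95 to 0.96 (Pearson's r). Between animals the correlation was 0.93 for animals 3 and 4, which were the deepest, and 0.67 to 0.77 for the other pairs. These correlations are across probes, which are not independent replicates, and the slides share an animal and a plate.

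The change was then compared between the plates, which hold different animals. In animals 1 and 2 alone, 231 probes were called (24.9%), of which 97 were higher (10.5%) and 134 lower (14.4%) in ME fibroblasts. In animals 3 and 4 alone, 417 were called (44.9%), 175 higher (18.9%) and 242 lower (26.1%). With 1 residual degree of freedom in each, these calls rest on variance shared between probes (edgeR's quasi-likelihood test). The 928 probes had passed the filter on the sums of both plates together, so neither plate is an independent check of the other. Whether called or not, 565 of the 928 had the same direction in all 4 animals. That is a stricter measure than the counts that follow, which compare only the sign of the fitted change on each plate. The share of all 928 with 1 sign on both plates was not counted, so these counts have no matching base rate. Measured in animals 3 and 4, 93 of the 97 probes that were called higher in animals 1 and 2 had the same direction, and 68 of them were called. Of the 134 called lower there, 133 had the same direction and 123 were called. Their median log2 fold change went from 1.79 to 1.43 for the higher and from -2.15 to -2.23 for the lower probes. In the reverse direction, 166 of the 175 probes called higher in animals 3 and 4 had the same direction in animals 1 and 2, and 68 were called. Of the 242 called lower, 229 had the same direction and 123 were called. Here the medians went from 1.41 to 1.15 and from -1.86 to -1.53. Each set was chosen by the size of its change on 1 plate, which can make its change on the other smaller. The part of this choice in the medians was not tested. The sums of animals 1 and 2 held 41076 to 61752 counts, similar in both types. The part of depth in the calls of either plate was not tested. Across the 928 probes, the fold changes of the plates correlated at 0.82 (Pearson's r, across probes).

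The difference between the plates itself was called for 17 of the 928 probes, or 1.83% (the group by plate term in edgeR's quasi-likelihood test, with the same limits on adjusted p and on log2 size, n = 4 animals). None of the 4 named probes was among them. Of the 17, 6 were called over the 4 animals together and the same number had 1 direction in all 4 animals. Another 6 were higher in ME fibroblasts in both animals of plate 1 and lower in both of plate 2, and 4 went the other way. Plate, animal and slide cannot be told apart in this design.

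**Figure D4:**
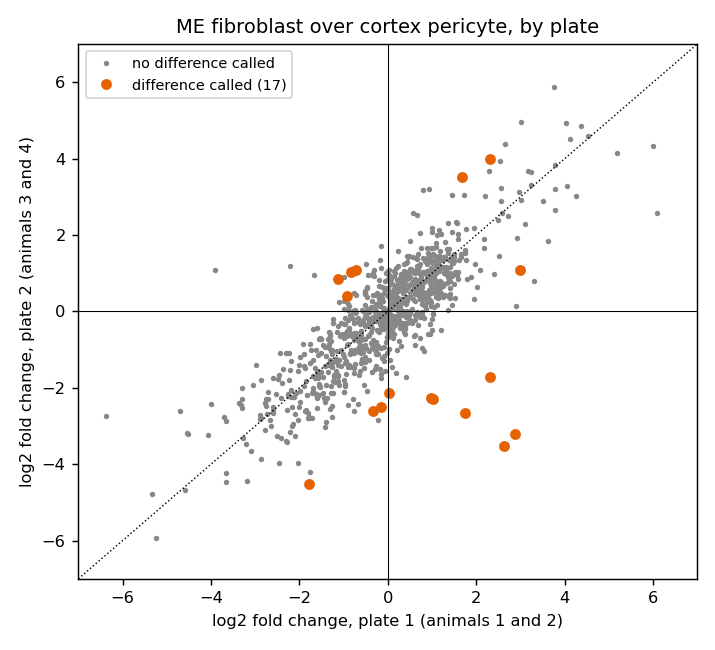
Log2 fold change of the 928 probes, ME fibroblast over cortex pericyte, in animals 1 and 2 (plate 1, x axis) and in animals 3 and 4 (plate 2, y axis). Each point is 1 probe, orange points are the 17 whose change differed between the plates, and the dotted line marks equal change. The fold changes of the plates correlated at 0.82 across probes.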

How the data were processed

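Areas on brain sections were profiled with the GeoMx mouse whole transcriptome panel. The authors used GeoMx NGS Pipeline 2.3.4 to turn reads into deduplicated probe counts and deposited these as raw counts for each segment, neither normalized nor background-subtracted. Probes that a file does not list were taken as 0. No segments held identical values. For 8 files an automated check of the unit could not locate the values, which the authors deposited in the same layout (other values in the unit table) and which were checked as whole numbers when loaded. Negative control probes are not marked, so no limit of quantification was computed.

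Segment type, animal and slide came from the labels and the plate from the file headers. The animal is the replicate, and segments of 1 animal are not independent. Sums per animal and type were filtered by filterByExpr (minimum count 10) and scaled by the upper quartile (percentile 75). The test was edgeR 4.0.16 under R 4.3.3 with limma 3.58.1, blocked by animal (3 residual degrees of freedom), with Benjamini-Hochberg adjustment. Standard errors are the log2 fold change over the square root of F and rest largely on variance shared between probes. The pairing comes from the animals, and the correlation between the deviations of an animal's 2 sums from their group means was 0.066, 0.047, 0.19 and 0.20 for animals 1 to 4. CPM is over all counts of a segment or sum. Log2 changes of single animals and slides used a prior count of 2, and counting intervals are 95% and exact.

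The probes named are the 2 of smallest p in each direction that were called and had 1 direction in all 4 animals. Comparison, lists and probes were chosen with earlier results of these data known. Alternatives were TMM, library totals, DESeq2 1.42.0, other filters, a fit with no replicate block, leaving out each animal, single segments, a mixed model (lmerTest 3.1.3), limma on means, no shared variance, thinned sums and single plates. Scripts were tested on simulated data.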

Additional observations from a re-analysis of the deposited data

Results flagged for a closer look

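The change between ME fibroblast and cortex pericyte segments differed between the plates for 17 probes (edgeR's test of the group by plate term), with differences in log2 change, plate 2 minus plate 1, from -6.20 to 1.95. The probe at -6.20 (edgeR adjusted p = 2.26e-16) was at 405 and 508 CPM in the ME fibroblast sums of animals 1 and 2 (25 and 29 counts) and at 43.3 and 50.4 CPM in those of animals 3 and 4 (38 and 5 counts). In the cortex pericyte sums it was at 97.4 and 55.6 CPM in animals 1 and 2 (4 and 3 counts) and at 543 and 456 CPM in animals 3 and 4 (1293 and 616 counts). Over the 4 animals together its log2 fold change was -1.14 with an edgeR adjusted p of 0.585.

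The 6 probes that were higher in ME fibroblasts on plate 1 and lower on plate 2 summed to 2008 and 2383 CPM in the ME fibroblast sums of animals 1 and 2 and to 253 and 303 CPM in those of animals 3 and 4. In the cortex pericyte sums they were at 560 and 519 CPM in animals 1 and 2 and at 1855 and 1661 CPM in animals 3 and 4. The cortex GFP segment of animal 2 held 3140 CPM of them, and the ME pericyte sums of animals 2, 3 and 4 held 755, 454 and 520 CPM. On plate 1 the segments chosen by GFP, of either region, were thus high and those chosen by desmin low, while on plate 2 the cortex pericytes were high and both ME types low. These 6 were chosen by their direction, so the sums are a description. The cause was not tested.

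In 46 groups of 4 to 10 values, 2 held a value that lay far from the others, and chance flags about 1 in 20 groups. One was a cortex pericyte segment of animal 3 with 3111 CPM of RTS0072072. The other was the median total of the ME fibroblast segments of animal 4, 30542 counts, below those of the other 3 animals.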

How the results depend on the processing

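The number of probes called moved most with the probes tested, and the share called was below 40.9% where more probes were tested. The number was 1906 of 20175 (493 higher, 1413 lower) with no filter on low counts. It was 1002 of 5000 (434 and 568) with the 5000 highest probes. It was 199 (72 and 127) when single segments were fitted with a mixed model for each probe, 204 (79 and 125) with no variance shared between probes and 231 (97 and 134) in plate 1 alone. With no replicate block it was 375 (155 and 220). On the same probes it ranged from 358 to 405 with each animal left out (148 to 174 higher, 200 to 231 lower). With the probes filtered again, chosen after seeing the data, it was 1728 without animal 1 (476 and 1252), 1820 without animal 2 (551 and 1269), 239 without animal 3 (90 higher) and 228 without animal 4 (81 higher). These fits tested 17781, 18216, 581 and 573 probes. On the same 928 probes it was 378 with DESeq2 (161 higher, 217 lower), 374 with TMM (143 and 231) and 366 with library totals (128 and 238). It was 345 with limma on means (145 and 200), 379 with single segments (139 and 240) and 417 in plate 2 alone (175 and 242). With sums thinned to the smallest total (1 random draw) it was 327 (152 and 175). Of the 380 probes called, 291 were called in the same direction there. The balance of directions thus moved with scaling and depth. Library totals moved the median log2 fold change of all 928 probes from 0.01 to -0.12. The 4 named probes kept direction and call in all 21 alternatives, and the 17 probes that differed between plates were 17 with TMM too.

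The log2 ratio of median nuclei was 0.24 without replicate 3, the reverse of -0.11, and ranged from -0.60 to 0.24 with each animal left out. That of median counts per segment ranged from -1.54 to -0.30 and that of counts per nucleus from -1.53 to -0.35. Fold changes of the named lower probes rest on 1 to 4 counts in ME fibroblast sums of 3 animals.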
